A study of Mus musculus with 23 samples.

Results

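The comparison described here set GRwt/wt cells exposed to dexamethasone (Dex), a synthetic glucocorticoid, against GRwt/wt cells that received only solvent. It used 6 of the 23 RNA-seq libraries of the series, taken by their genotype and treatment labels alone. The cells were mouse embryonic fibroblasts (MEFs), grown as primary cultures from FVB/NJ mice, with an unmodified glucocorticoid receptor (GR). Of the 6 libraries, 3 (Dex replicates 1 to 3) came from cells treated with 10 nM Dex for 5 h and 3 (vehicle replicates 1 to 3) from cells treated with solvent for the same time, all in medium with fetal calf serum. The other 17 libraries, 9 with Dex and 8 with vehicle, came from MEFs homozygous for a point mutation in the DNA-binding domain of GR (GRD/D), in its ligand-binding domain (GRL/L) or in both (GRD+L/D+L), given the same treatments. They entered the statistical model to estimate the spread between replicates, and their 8 vehicle libraries are also used where all 11 vehicle libraries of the series are named. Within a genotype, each culture was derived from a different mouse, so a p-value measures the spread between cultures, and the labels do not tie a Dex library to a vehicle library of the same culture. The model covers 1 dose, 1 time point and a mixed population, since primary MEFs are grown from minced embryos after removal of the head and organs.

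In resting cells, GR is held in the cytoplasm by heat-shock proteins and their co-chaperones. A bound glucocorticoid sends the receptor to the nucleus, where GR dimers recognize palindromic DNA elements and raise the transcription of nearby genes, among them genes that dampen the hormone response, regulators of the circadian clock and of energy use, and inhibitors of inflammation. In fibroblasts, glucocorticoids are also known for lowering cytokine and matrix protease transcripts through the factors NF-kB and AP-1.

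The 6 libraries held 16.5 M to 22.1 M counts. All 14 fibroblast markers examined had counts in every library, with a sum between 35190 and 57671 CPM (counts divided by the library total and put on a common scale). Vehicle replicate 1 stood apart, because its highest Spearman correlation with any other library was 0.916, against 0.973 or more for the other 22, and because, gene by gene, its distance from the median library followed transcript GC content (Spearman correlation 0.688, against -0.05 to 0.331 in the other 5 GRwt/wt libraries). Vehicle replicate 3 held macrophage transcripts, with a sum of 6293 CPM over 22 macrophage markers, against 24.2 to 135 CPM in the other 5. Dex replicate 1 and vehicle replicate 1 had higher Des, the gene of desmin, at 139.9 and 210.0 CPM against 9.17 to 10.7 CPM in the other 4, and higher Tnnt2, a troponin gene, at 10.5 and 7.67 CPM against 1.13 to 2.56 CPM. The other 10 skeletal muscle markers examined were under 1 CPM in every library. These 2 libraries alone expressed Xist above 1 CPM and had no counts of the Y-linked Ddx3y. Results are therefore given with all libraries, without vehicle replicate 1, without vehicle replicate 3, and without both, though not for every named gene. The fit without both had 1 vehicle library that was assumed to vary like the other groups. Without vehicle replicate 1, only the Dex group kept a library with Xist above 1 CPM and high Des. The log2 fold change of Des, Dex against vehicle, then went from -0.52 to 2.46.

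Nr3c1, the gene of GR, amounted to 44.5, 81.3 and 76.3 CPM in Dex replicates 1, 2 and 3 and to 4.08, 73.0 and 88.0 CPM in vehicle replicates 1, 2 and 3. Vehicle replicate 1 lay far under the other 5 libraries, and the groups overlapped. The log2 fold change (LFC) of Dex against vehicle was 0.29 (SE 0.59, adjusted p 0.833), and it became -0.25 without vehicle replicate 1, 0.83 without vehicle replicate 3 and -0.13 without both.

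Promoter windows were examined because GR acts through DNA elements and the called genes moved together. RefSeq windows from 250 bases before to 50 bases after a transcription start (GRCm38.p6) were at hand for 17 of the 25 called genes, in 26 windows. They are C57BL/6J reference sequence, whereas the cells were FVB/NJ. The palindromic core of the GR element, GNACA and TGTNC with 3 further bases of any kind between them, which reads the same on both strands, occurred in 0.475% of all 32851 windows. Among the called genes it occurred only in the overlapping windows of Fam107a, an actin-associated protein, where the match begins 118 bases before the start. This window (chr14:8309730-8310029, minus strand) is shown with the match in capitals.

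Fam107a: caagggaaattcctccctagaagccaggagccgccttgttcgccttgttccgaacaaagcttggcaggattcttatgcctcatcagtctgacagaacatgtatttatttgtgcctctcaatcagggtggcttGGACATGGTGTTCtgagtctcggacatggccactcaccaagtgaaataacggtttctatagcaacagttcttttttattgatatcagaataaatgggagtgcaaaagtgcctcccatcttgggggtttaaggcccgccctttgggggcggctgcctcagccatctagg

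The half-site AGAACA, searched on both strands and contained in many full elements, was present in 7 of the 26 windows, or 26.9%, against 19% of all windows. The E-box CACGTG, which reads the same on both strands and is the element of the clock factors, was present in 4 of the 26 windows, those of Fkbp5, Per1, Klf15 and Dock9, against 7.15% of all windows. Such a match is a description of the sequence, and the windows do not reach distant elements. The windows of the 2 called genes with the smallest adjusted p are shown with the E-box in capitals, for Fkbp5 at chr17:28486100-28486399 on the minus strand (169 bases before the start) and for Per1 at chr11:69098699-69098998 on the plus strand (166 bases before the start).

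Fkbp5: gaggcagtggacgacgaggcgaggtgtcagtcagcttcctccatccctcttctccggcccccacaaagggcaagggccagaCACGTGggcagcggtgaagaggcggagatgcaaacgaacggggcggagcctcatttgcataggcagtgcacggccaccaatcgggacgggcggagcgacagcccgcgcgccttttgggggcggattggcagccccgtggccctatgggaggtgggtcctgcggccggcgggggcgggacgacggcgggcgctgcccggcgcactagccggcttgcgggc
Per1: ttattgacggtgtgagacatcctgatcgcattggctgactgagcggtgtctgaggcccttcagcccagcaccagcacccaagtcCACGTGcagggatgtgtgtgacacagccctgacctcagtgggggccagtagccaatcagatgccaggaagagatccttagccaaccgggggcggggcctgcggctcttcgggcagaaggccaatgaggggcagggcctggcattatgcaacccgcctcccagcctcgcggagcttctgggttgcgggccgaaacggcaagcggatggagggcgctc

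With all libraries, 25 of 15748 tested genes were called higher with Dex (0.159%) and 0 were called lower (0%), where a call required an adjusted p of at most 0.05 in edgeR and an LFC of at least 1 in either direction. Where no other tool is named, called refers to this edgeR rule. The adjusted p alone was met by 32 higher genes (0.203%) and 3 lower genes (0.0191%). An unadjusted p under 0.05 was reached by 855 genes in the higher direction (5.43%) and by 1599 in the lower direction (10.2%), and DESeq2 called 121 genes higher (0.768%), including all 25, and 165 lower (1.05%). With voom and sample quality weights, 15 genes were called higher (0.0953%), of which 11 were among the 25, and 0 lower (0%). When the model held the 6 libraries of this comparison and no others, 0 genes were called by edgeR. In that fit 306 genes had an unadjusted p under 0.05, against 2454 with all libraries of the series in the model. In every one of the 25, the lowest Dex library lay above the highest vehicle library, a pattern found in 784 of all genes (4.98%). In 17 of the 25, all Dex libraries also lay above all 11 vehicle libraries of the series, which 141 of all genes did (0.895%).

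**Figure D1:**
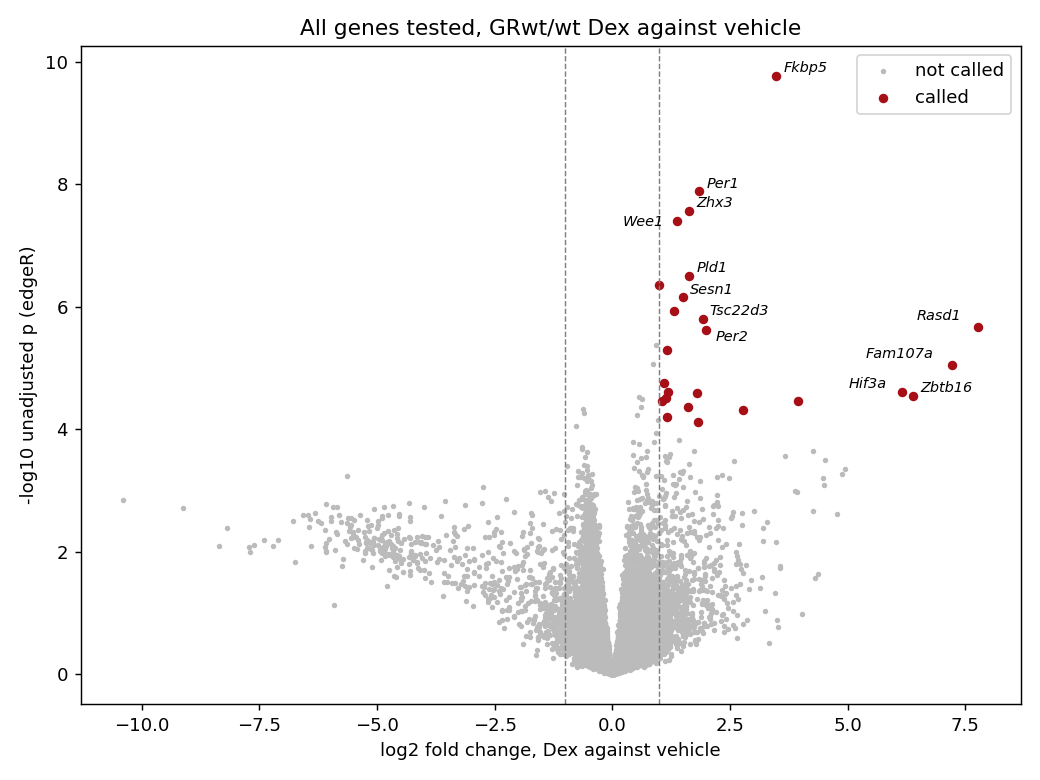
Log2 fold change of Dex against vehicle (horizontal axis) and -log10 of the unadjusted edgeR p (vertical axis) of the 15748 tested genes in GRwt/wt MEFs, with the 25 called genes in red and dashed lines at the LFC threshold of 1 in each direction. All called genes lie on the right, Fkbp5 is at the top, and the genes with a large negative LFC reach no comparable p.

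The 25 genes differed widely in their level in vehicle. In 17 of them the vehicle mean was over 10 CPM, and in 6 (Rasd1, Fam107a, Zbtb16, Hif3a, Card14 and AC103362.1) it was under 1 CPM. Per2 and Klf15 lay in between, with a vehicle mean of 3.76 and 3.74 CPM. The median LFC of the 25 was 1.64, and it was 1.5 without vehicle replicate 1, 1.75 without vehicle replicate 3 and 1.45 without both. Of the 25, 20 were also called without vehicle replicate 1, 24 without vehicle replicate 3, 19 in both of these fits and 12 without both libraries. Leaving out each of the 6 libraries in turn, 11 genes were called every time, among them Fkbp5, Per1, Zhx3, Wee1, Pld1, Sesn1, Tsc22d3, Rasd1, Per2 and Fam107a. Dex replicate 2 had the highest value in 15 of the 25 and vehicle replicate 1 the lowest in 15.

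**Figure D2:**
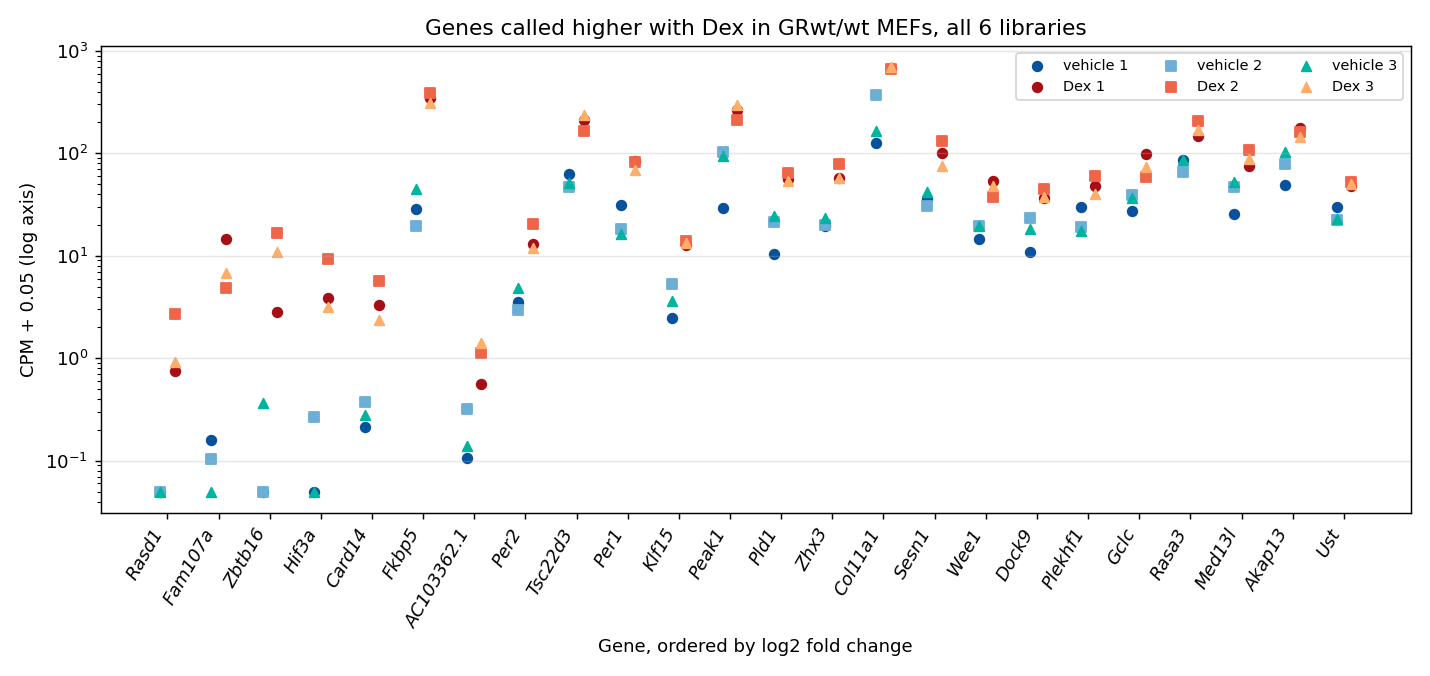
CPM plus 0.05 (log axis) of 24 of the 25 called genes in each of the 3 Dex libraries (red and orange) and 3 vehicle libraries (blue and green), with genes ordered by LFC. Each gene has its 3 Dex points above its 3 vehicle points, and the 6 genes with a vehicle mean under 1 CPM are near the floor of the axis in vehicle. The place of Rasd1 in the order depends on the prior count.

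Fkbp5 (ENSMUSG00000024222, chromosome 17, 28399094 to 28517527), a co-chaperone that lowers the affinity of GR for its ligand, had the smallest p of all genes. It was at 349.9, 384 and 311 CPM in Dex replicates 1, 2 and 3 and at 28.9, 19.3 and 44.9 CPM in vehicle replicates 1, 2 and 3. The groups were far apart, and vehicle replicate 2 was the lowest library. Fkbp5 rose 11.2-fold (LFC 3.49, SE 0.27, adjusted p 2.67e-06), with an LFC of 3.43 without vehicle replicate 1, 3.90 without vehicle replicate 3 and 4.16 without both. Of the 21 genes of the receptor, its chaperones, coregulators and steroid enzymes, Fkbp5 was the single call in edgeR with all libraries (0.159% of all genes), and DESeq2 called Hsd11b2 as well (0.768%). The others included Hsd11b2, the enzyme that inactivates glucocorticoids, at 1.57, 9.60 and 2.93 CPM with Dex and 1.99, 0.698 and 0.317 CPM with vehicle (LFC 2.24, adjusted p 0.153), where Dex replicate 2 was highest and the groups overlapped. Without vehicle replicate 1 Hsd11b2 was called (LFC 3.22, adjusted p 0.0438), and over all alternatives its adjusted p ran from 0.0219 to 0.970. The median LFC of this list was 0.18, against -0.0093 over all tested genes.

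The clock repressors Per1 and Per2, which close the feedback loop of the circadian oscillator, were both called. Per1 (chromosome 11, 69095217 to 69109960) stood at 83.9, 83.1 and 68.3 CPM with Dex and 31.2, 18 and 16.1 CPM with vehicle, in the order of the replicates, and rose 3.60-fold (LFC 1.85, SE 0.19, adjusted p 0.000102). Vehicle replicate 1 was the highest vehicle library for Per1, and its LFC was 2.20 without it and 1.72 without vehicle replicate 3. Per2 (chromosome 1, 91415982 to 91459324) stood at 12.9, 20.6 and 11.8 CPM with Dex and 3.53, 2.90 and 4.85 CPM with vehicle (LFC 2.00, SE 0.29, adjusted p 0.00341). Both were called in each of the fits without vehicle libraries 1, 3 or both. Of the 23 clock genes tested, 7 had an unadjusted p under 0.05 in the higher direction, 0 did in the lower direction (5.43% and 10.2% of all genes), and the median LFC was 0.24. DESeq2 called 3 higher (0.768% of all genes), and edgeR called Per1 and Per2 (0.159%). The other 5 did not pass the adjusted p. Hlf, an output factor of the clock, was at 2.07, 21.8 and 8.80 CPM with Dex and 1.05, 3.38 and 2.45 CPM with vehicle (LFC 2.24, adjusted p 0.144), overlapping between groups. Cry1, the partner of the Per proteins, had an LFC of 0.51 (adjusted p 0.16), with no overlap. The activator genes Clock and Arntl had an LFC of 0.39 and -0.049, and in vehicle replicate 1 Clock was at 1.27 CPM, against 28.9 and 45.8 CPM in the other vehicle libraries.

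Among anti-inflammatory targets, Tsc22d3, which encodes the leucine zipper protein GILZ, was at 212, 166 and 235 CPM with Dex and at 63.3, 47.3 and 51.8 CPM with vehicle. The 3 vehicle libraries were close to each other, and Tsc22d3 rose 3.78-fold (LFC 1.92, SE 0.27, adjusted p 0.00272), with an LFC between 1.93 and 2.1 in the fits without vehicle replicate 1, 3 or both. Dusp1, the phosphatase that switches off p38 and JNK kinases, was at 33.5, 28.7 and 22.5 CPM with Dex and 18.4, 11.4 and 13.2 CPM with vehicle. It passed the adjusted p (LFC 0.98, SE 0.19, adjusted p 0.0335) just under the LFC threshold, and it was called without vehicle replicate 1 (LFC 1.19) and without both libraries (1.29), but not without vehicle replicate 3 (0.97). The exons of Dusp1 overlap those of Ergic1 on the opposite strand, and since the strand setting of the counting is not given in the sources used here, the reads of both genes cannot be told apart. Of 10 dual-specificity phosphatases tested, Dusp1 was alone in passing the adjusted p (0.203% of all genes higher and 0.0191% lower). Dusp9 (LFC -0.91, adjusted p 0.206) and Dusp8 (-0.75, 0.224) had lower values with Dex without passing it, and the median LFC of the list was -0.21.

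Zhx3, Klf15 and Med13l, which act in transcription, were also called. Zhx3, a zinc-finger homeobox repressor, was at 57.2, 78.8 and 57.6 CPM with Dex and 19.7, 19.8 and 23.2 CPM with vehicle. Its vehicle values were nearly equal, including vehicle replicates 1 and 3, and it rose 3.09-fold (LFC 1.63, SE 0.17, adjusted p 0.000142). With a GC and length correction its LFC was 1.07, and with that correction and without vehicle replicate 3 it was 0.96, where the call was lost. Its exons overlap those of Gm27206 and, on the other strand, Plcg1. Klf15, a Kruppel-like factor that promotes amino acid breakdown, was at 12.8, 14 and 13.2 CPM with Dex and 2.43, 5.21 and 3.58 CPM with vehicle, so that the Dex libraries were nearly equal and vehicle replicate 1 was lowest. Klf15 was called with all libraries (LFC 1.83, SE 0.36, adjusted p 0.0349) and without vehicle replicate 3 (1.83), but not without vehicle replicate 1 (1.60) or without both (1.34). Med13l, a subunit of the Mediator kinase module, ranged from 74.9 to 107 CPM with Dex and from 25.5 to 52.8 CPM with vehicle (LFC 1.10, adjusted p 0.0173), with vehicle replicate 1 lowest, and was not called without it (0.84).

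Of the 15 Kruppel-like factors tested, Klf15 was the single call in edgeR with all libraries (0.159% of all genes), and DESeq2 called Klf9 and Klf5 as well (0.768%), while 6 had an unadjusted p under 0.05 in the higher direction and 1, Klf16, in the lower direction (5.43% and 10.2% of all genes). Klf9, a classical glucocorticoid target, was at 79.9, 104 and 97.4 CPM with Dex and 9.98, 51.4 and 38.1 CPM with vehicle (LFC 1.5, adjusted p 0.104). Vehicle replicate 1 was low by the measure of the others, and without it Klf9 was called at a smaller LFC of 1.07. Klf13 was at 107, 105 and 91.1 CPM with Dex and 68.3, 39.4 and 70.2 CPM with vehicle (LFC 0.77, adjusted p 0.104) and was called only in the fit without both vehicle libraries (1.34), among the 4 fits compared. Klf5 had an LFC of 1.5 (adjusted p 0.146) and Klf16 of -0.64 (adjusted p 0.104), each without overlap between the groups. The median LFC of the list was 0.42, and it moved to 0.33 without vehicle replicate 1 and 0.87 without vehicle replicate 3.

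Wee1 and Sesn1, which hold back cell division and growth signalling, were both called. Wee1, the kinase that holds back entry into mitosis by inhibiting Cdk1, was at 54.0, 37.2 and 47.8 CPM with Dex and 14.6, 19.3 and 19.5 CPM with vehicle and rose 2.60-fold (LFC 1.38, SE 0.15, adjusted p 0.000154). Sesn1, a sestrin that restrains the growth kinase complex mTORC1, was at 99.6, 133 and 74.5 CPM with Dex and 36.2, 30.9 and 41.5 CPM with vehicle and rose 2.83-fold (LFC 1.5, SE 0.20, adjusted p 0.00158). Both were called in all 3 fits without vehicle libraries. Foxo3, a transcription factor that insulin excludes from the nucleus, was at 188, 245 and 189.7 CPM with Dex and 134, 112 and 96.5 CPM with vehicle and passed the adjusted p at an LFC of 0.86 (SE 0.14, adjusted p 0.00938), under the LFC threshold. Among the 23 tested genes of insulin and mTOR signalling, 10 had an unadjusted p under 0.05 in the higher direction and 1, the translation inhibitor Eif4ebp1 (LFC -0.55, adjusted p 0.266), in the lower direction, and 2, Sesn1 and Klf15, were called, against 5.43% and 10.2% of all genes at that p in the higher and lower direction and 0.159% called. DESeq2 called 4 (0.768% of all genes). Pik3r1, a regulatory subunit of the insulin-activated lipid kinase, was at 169, 291 and 252 CPM with Dex and 12.2, 107 and 99.6 CPM with vehicle (LFC 1.70, adjusted p 0.148), with vehicle replicate 1 far lowest. The median LFC of this list was 0.53 with all libraries, 0.35 without vehicle replicate 1, 0.63 without vehicle replicate 3 and 0.40 without both. Of 22 growth arrest and p53 genes, 4 were higher and 1 lower at an unadjusted p under 0.05, 2 (Wee1 and Sesn1) were called by edgeR and DESeq2, and the median LFC was 0.13. Of 26 cell cycle genes, 0 were called in edgeR or DESeq2, 0 had an unadjusted p under 0.05 in the higher direction, and 1, the cyclin Ccne1, did in the lower direction (19.1, 16.2 and 19.3 CPM with Dex, 31.2, 28 and 23.2 CPM with vehicle, LFC -0.59, adjusted p 0.165).

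Further called genes encode proteins of various kinds. Pld1, a phospholipase D that makes phosphatidic acid, was at 55.9, 64.7 and 54.2 CPM with Dex and 10.3, 21.2 and 24.6 CPM with vehicle (LFC 1.64, SE 0.21, adjusted p 0.000992). Vehicle replicate 1 was the lowest library for Pld1, which was called in all 3 fits without vehicle replicates 1, 3 or both. Peak1, a pseudokinase of the cytoskeleton whose exons overlap the antisense gene Peak1os, was at 267, 213 and 298 CPM with Dex and 29.1, 102 and 93.4 CPM with vehicle. Vehicle replicate 1 was lowest for Peak1, and its LFC fell from 1.79 (adjusted p 0.0208) to 1.41 without that library, where it was still called. Plekhf1, an endosomal protein, rose 2.24-fold (47.9, 60.3 and 40.0 CPM with Dex, 29.8, 19.0 and 17.6 CPM with vehicle, adjusted p 0.00604), and Ust, a sulfotransferase of glycosaminoglycans, rose 2.00-fold (48.1, 52.0 and 50.1 CPM with Dex, 29.9, 22.2 and 23 CPM with vehicle, adjusted p 0.00116). The LFC of Ust was at the threshold with all libraries (1.00), below it without vehicle replicate 3 (0.99), where the call was lost, and 1.16 without both.

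Gclc, the rate-limiting enzyme of glutathione synthesis, was at 97.8, 58.5 and 74.2 CPM with Dex and 27.1, 39.1 and 37.0 CPM with vehicle (LFC 1.16, SE 0.22, adjusted p 0.0311). Akap13, a protein that anchors protein kinase A, was at 175, 159.7 and 144 CPM with Dex and 48.9, 79.2 and 103 CPM with vehicle (LFC 1.05, SE 0.19, adjusted p 0.0219). Dock9, an activator of Cdc42, was at 36.6, 44.4 and 37.8 CPM with Dex and 10.9, 23.1 and 18.2 CPM with vehicle (LFC 1.19, SE 0.21, adjusted p 0.0208). In all 3, vehicle replicate 1 was the lowest library and the call was lost without it, at an LFC of 1.01, 0.80 and 0.95. Rasa3, which inactivates Ras-family proteins, was at 146, 208 and 169.7 CPM with Dex and 87.0, 65.8 and 85.3 CPM with vehicle (LFC 1.14, SE 0.20, adjusted p 0.0216) and was called without either vehicle library but not without both, at an LFC of 1.39.

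Col11a1, a chain of a fibril-forming collagen, was the single called gene among 27 collagens and matrix genes (0.159% of all genes). It was at 685, 658 and 693 CPM with Dex and 125, 371 and 166 CPM with vehicle. The Dex libraries differed little from each other, whereas vehicle replicate 2 was well above vehicle replicates 1 and 3. Col11a1 rose 3.07-fold (LFC 1.62, SE 0.30, adjusted p 0.0253), with an LFC of 1.34 without vehicle replicate 1 and 1.48 without vehicle replicate 3. Without both, when it was set against vehicle replicate 2 alone, the LFC was 0.86 and the call was lost. The other 26 members had an unadjusted p over 0.05, and the median of the list was 0.18.

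Card14, Hif3a, Zbtb16, Fam107a, Rasd1 and AC103362.1 were close to silent in vehicle, so they are given by their read counts. Zbtb16, a transcriptional repressor known as PLZF, had 55, 359 and 172 reads in Dex replicates 1, 2 and 3 and 0, 0 and 7 in vehicle replicates 1, 2 and 3. The ratio of the summed counts, scaled for library size, was 86.2 (exact 95% interval 41.6 to 215). All 7 vehicle reads came from vehicle replicate 3. Hif3a, an inhibitory member of the hypoxia-inducible factors, had 76, 198 and 50 reads with Dex and 0, 4 and 0 with vehicle, a ratio of 83.4 (32.3 to 308). Fam107a, whose promoter window holds the GR element shown above, had 286, 102 and 109 reads with Dex and 2, 1 and 0 with vehicle, a ratio of 171 (58.0 to 830). Both had more reads in every Dex library than in any vehicle library. Rasd1, a Ras-like protein named for its induction by Dex, had 14, 57 and 14 reads with Dex and none in the 3 vehicle libraries, and it was at least 8.56-fold higher when each vehicle library was set to the limit of 3 counts that a count of 0 allows. Card14, a scaffold of NF-kB signalling whose exons overlap those of Sgsh on the opposite strand, had 65, 120 and 37 reads with Dex and 3, 6 and 5 with vehicle, a ratio of 16.3 (9.52 to 30.3). The long noncoding gene AC103362.1 had 10, 23 and 22 reads with Dex and 1, 5 and 2 with vehicle, a ratio of 7.08 (3.35 to 17.2). These intervals cover counting error only. The adjusted p of these 6 genes lay between 0.00336 and 0.0261, all 6 were called without either vehicle library, and none was called without both, where only vehicle replicate 2 remained. In that fit the LFC was 7.16 for Fam107a, 4.60 for Hif3a, 3.50 for Card14 and 1.83 for AC103362.1, while Zbtb16 and Rasd1 had 0 reads in vehicle replicate 2, so that their fitted LFC depended on the prior count. The adjusted p of Zbtb16 and Rasd1 was then 0.0517 and 0.0802, and over all alternatives it ran from 0.000149 to 0.97 for Zbtb16 and from 3.99e-05 to 0.97 for Rasd1.

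**Figure D3:**
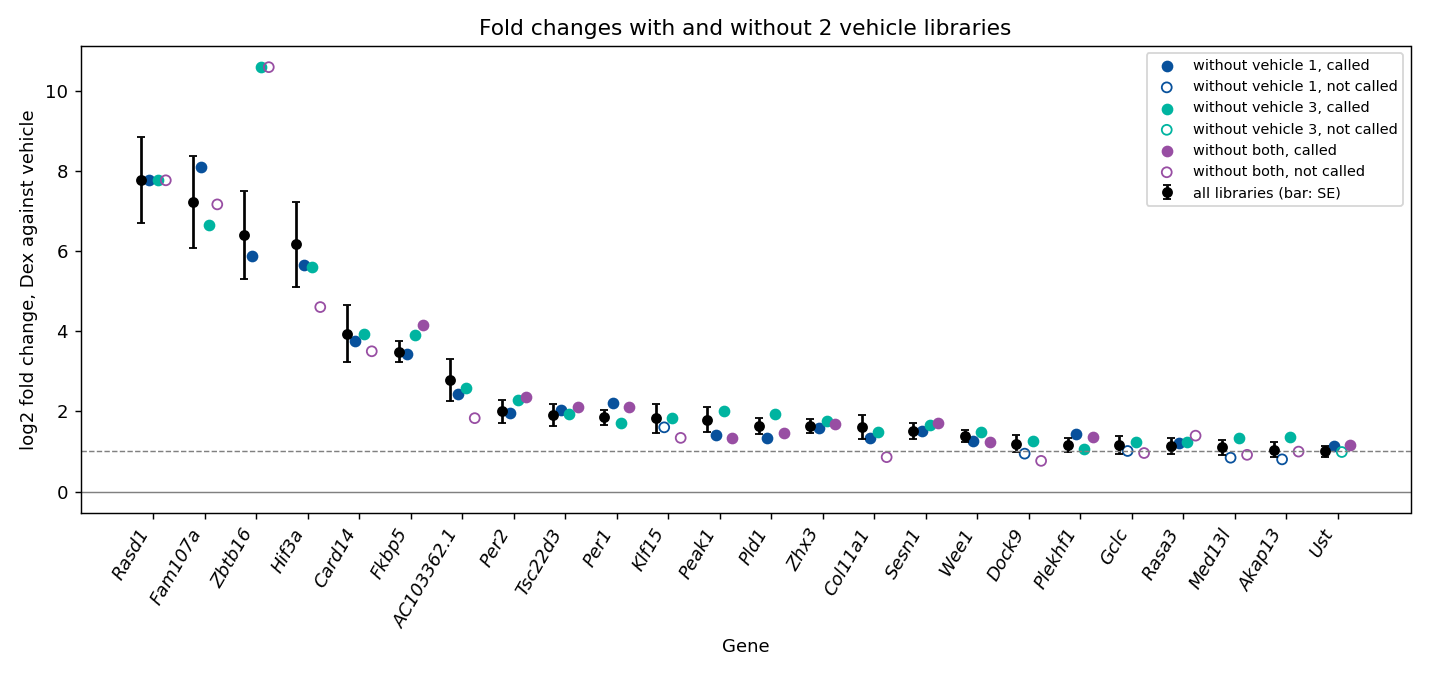
LFC of 24 of the 25 called genes with all libraries (black, bars are SE), without vehicle replicate 1 (blue), without vehicle replicate 3 (green) and without both (purple), where filled points were called and open points were not, and the dashed line is the LFC threshold of 1. Every point lies above 0, and the open blue points belong to Klf15, Dock9, Gclc, Med13l and Akap13. Rasd1 had 0 reads in vehicle, and its plotted LFC depends on the prior count.

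The number of called genes changed with the vehicle libraries more than the identity of the genes with the smallest p. Without vehicle replicate 1, 41 genes were called higher (0.261%) and 34 lower (0.217%). Without vehicle replicate 3 there were 93 higher (0.593%) and 2 lower (0.0128%), and without both there were 21 higher (0.13%) and 1 lower (0.00618%). Of the higher genes, 22 were called in both fits that left out 1 of these libraries, and 11 were called in all 4 fits, among them Fkbp5, Per1, Zhx3, Wee1, Pld1, Sesn1, Tsc22d3, Per2, Plekhf1 and Peak1. Across genes, which are not independent replicates, the LFC was related to transcript GC content with a Spearman correlation of -0.426 with all libraries, -0.555 without vehicle replicate 3, 0.118 without vehicle replicate 1 and 0.064 without both. The median GC content was 50.6% in the 25 called genes and 49.5% in all genes. With a GC and length correction, 20 of the 25 were called among 40 higher genes (0.254%), with 1 lower gene (0.00635%). The 5 not called were Ust, Med13l, Dock9, Akap13 and Col11a1, at an LFC of 0.95, 0.79, 0.78, 0.58 and 1.2, and for Akap13 and Col11a1 the adjusted p was 0.111 and 0.0759, within a range over all alternatives of 6.68e-05 to 0.970 and 5.89e-05 to 0.970. With that correction and without vehicle replicate 3, 19 of the 25 were called among 94 higher genes (0.599%), with 247 lower genes (1.58%), so the count of lower genes depended on which of these steps were combined.

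Among the genes newly called without vehicle replicate 1, the 5 with the smallest p were Dusp1, Ndrg2, Klf9, Tent5b and Dpf1, and in all but Klf9 that library had been the highest of the vehicle group. Ndrg2, a stress-responsive growth inhibitor, was at 32.7, 26.5 and 20.5 CPM with Dex and 20.4, 8.11 and 8.06 CPM with vehicle, and its LFC went from 1.12 with all libraries to 1.71. Tent5b was at 44.2, 12.3 and 28 CPM with Dex and 15.1, 8.05 and 3.99 CPM with vehicle, and its LFC went from 1.64 to 2.23. Dpf1 moved likewise from 0.88 to 1.62. Among the genes newly called without vehicle replicate 3, the 5 with the smallest p were Aff1, Rapgef2, Gm45221, Zfp551 and Hipk2, and in each that library had been the highest of the vehicle group. Aff1, a scaffold of the elongation complex, was at 165, 154 and 175 CPM with Dex and 63.7, 86.7 and 108 CPM with vehicle, passed the adjusted p already with all libraries (LFC 0.93, adjusted p 0.00553), and went to an LFC of 1.17. Rapgef2, an activator of Rap proteins, was at 36.5, 39.8 and 38.1 CPM with Dex and 8.99, 19.0 and 34.6 CPM with vehicle and went from 0.87 to 1.48. The kinase gene Hipk2 went from 0.85 to 1.48, and Zfp551 from 1.45 to 2.36, whereas Gm45221 stayed under 1 CPM in all 6 libraries. Without both libraries, the 5 newly called genes with the smallest p were Klf13, Ssh2, Dusp1, Il6ra and Vav2, of which the phosphatase gene Ssh2 was also called without either library alone.

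No gene was called lower with all libraries, and the 3 that passed the adjusted p had small differences. The pseudogene Atp6v0c-ps2, whose reads may be shared with its parent gene, was at 33.1, 30.6 and 38.1 CPM with Dex and 57.6, 43.3 and 55.5 CPM with vehicle (LFC -0.62, adjusted p 0.0261). Commd7, of a family of NF-kB and trafficking regulators, was at 34.8, 31.2 and 36.7 CPM with Dex and 61.0, 48.4 and 45.5 CPM with vehicle (LFC -0.59, adjusted p 0.0288). Rps19bp1, a ribosomal protein partner, was at 13.8, 12.8 and 13.9 CPM with Dex and 29.8, 22.3 and 17.3 CPM with vehicle (LFC -0.77, adjusted p 0.0392). In all 3 the groups did not overlap, which 706 of all genes showed in this direction (4.48%), and vehicle replicate 1 was the highest library. With a GC and length correction their LFC was -0.20, -0.60 and -0.32.

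The larger negative LFCs went with high values in vehicle replicate 3. Of the 34 genes called lower without vehicle replicate 1, 33 were highest in vehicle replicate 3, and so were 189 of the 192 called lower without vehicle replicate 2 (1.22% of the genes tested in that fit, in which 182 were called higher, or 1.16%). A set of 31 genes had an unadjusted p under 0.05 and was called lower in at least 2 of the 3 fits that each left out 1 vehicle library. All 31 were highest in vehicle replicate 3, 0 were called lower in edgeR when it was left out, and 10 then had a positive LFC. Cd14, a receptor of bacterial lipopolysaccharide on macrophages, was at 2.07, 1.73 and 1.93 CPM with Dex and 3.64, 2.04 and 33.4 CPM with vehicle. Its LFC was -2.77 with all libraries (adjusted p 0.142) and -0.52 without vehicle replicate 3. The chemokine receptor Cxcr4 was at 0.657, 1.08 and 0.499 CPM with Dex and 0.938, 0.805 and 43.4 CPM with vehicle, and its LFC went from -4.32 to -0.17. Coro1a, an actin regulator of blood cells, was at 1.21, 1.5 and 1.06 CPM with Dex and 2.81, 1.29 and 40.5 CPM with vehicle, and its LFC went from -3.55 to -0.65. Ch25h, Csf2ra, Aldh3b1, Slc9b2, Fcrls, Atp2a3 and Epsti1 were also highest in vehicle replicate 3. Without it their LFC was -0.90, -0.51, -0.76, -1.11, -3.70, -2.31 and -2.23, in that order, so a negative LFC remained. Fcrls, Atp2a3 and Epsti1 were under 1 CPM in every other library. In Csf2ra, Aldh3b1, Atp2a3 and Epsti1 the groups did not overlap (4.48% of all genes in this direction).

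All 22 macrophage markers passed the expression filter, all had a negative LFC and an unadjusted p under 0.05 with all libraries (10.2% of all genes in this direction), and their median LFC was -5.10. Without vehicle replicate 3 the median was 1.18, without vehicle replicate 1 it was -5.68, and without both it was 1.96. Dex replicates 1, 2 and 3 summed to 44.8, 135 and 24.2 CPM and vehicle replicate 1 to 51.1 CPM. In vehicle replicate 2 the markers summed to 24.2 CPM, and 16 of the 22 were under 1 CPM there. In edgeR 0 markers were called with all libraries, while DESeq2 called 19 of them lower (1.05% of all genes). In bulk RNA, the number of macrophages in a library and the RNA per macrophage cannot be told apart. The 2 genes called lower without vehicle replicate 3 and the 1 called lower without both libraries were of other kinds, and they were chosen for naming after their values were seen. The long noncoding gene 5033430I15Rik was at 1.26, 1.22 and 0.749 CPM with Dex and 2.43, 2.58 and 1.63 CPM with vehicle, and the pseudogene Gm6394 was under 1 CPM in all 6 libraries. The antisense gene Gm15564, called lower without both libraries and also without vehicle replicate 1, was at 31.4, 35.9 and 21.5 CPM with Dex and 46.1, 73.8 and 54.3 CPM with vehicle (LFC -0.97 with all libraries, adjusted p 0.0993). The groups did not overlap for 5033430I15Rik and Gm15564.

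**Figure D4:**
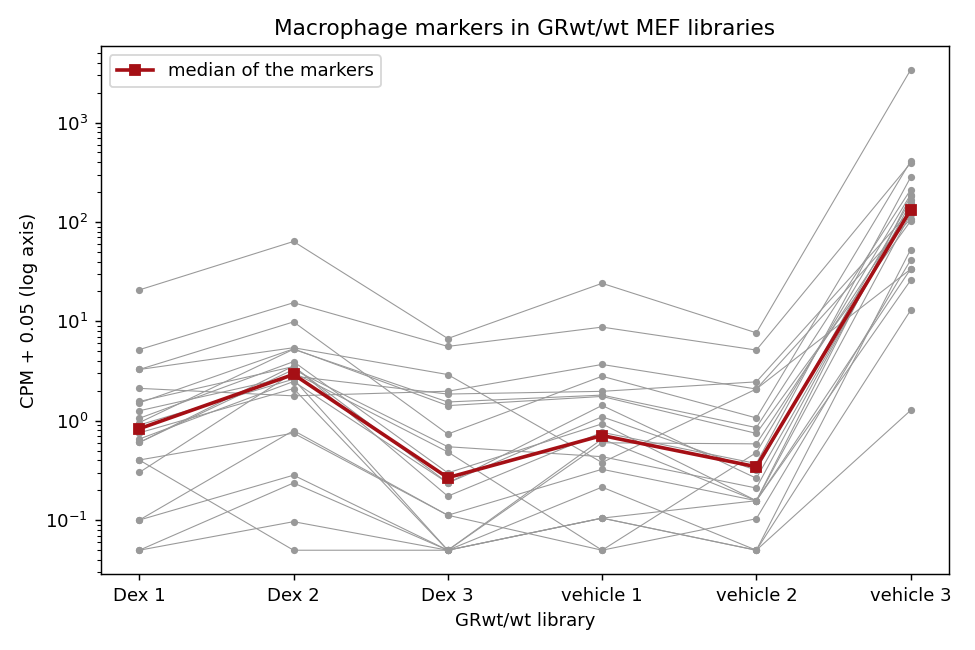
CPM plus 0.05 (log axis) of the 22 macrophage markers in the 6 GRwt/wt libraries, each gene as a grey line and their median in red. Vehicle replicate 3 is the highest library for the markers, and their sum is 6293 CPM there, against 24.2 to 135 CPM in the other 5.

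The LFC was positive in every member of the list of 20 established glucocorticoid-induced genes. This list was chosen with earlier results of these data known, so its counts are a description and no independent test. All 20 passed the expression filter, 17 had an unadjusted p under 0.05 (5.43% of all genes in this direction), 6 passed the adjusted p in edgeR (0.203%) and 5 (Fkbp5, Per1, Tsc22d3, Hif3a and Zbtb16) were called there (0.159%). DESeq2 called 12 (0.768%), these 5 and Dusp1, Pdk4, Cebpd, Klf9, Mt2, Sgk1 and Rgs2. The median LFC was 1.42, against -0.0093 over all genes, and it was 1.44 without vehicle replicate 1, 1.51 without vehicle replicate 3 and 1.42 without both. In these fits 7, 7 and 4 members were called, against 0.261%, 0.593% and 0.13% of all genes. In 17 of the 20 the groups did not overlap, against 4.98% of all genes. Pdk4, the kinase that shuts off pyruvate oxidation, was at 238, 293 and 146 CPM with Dex and 22.3, 21.5 and 9.60 CPM with vehicle. Its values in every Dex library were several times those in vehicle, but the spread between replicates was wide (LFC 3.67, SE 0.81, adjusted p 0.0843), and it was not called in edgeR with all libraries. It was called in DESeq2 (adjusted p 9.22e-05) and in edgeR without vehicle replicate 2 (0.0448), and over all alternatives its adjusted p ran from 9.22e-05 to 0.705. Cebpd, a C/EBP transcription factor whose exons overlap Spidr, was at 34.5, 44.5 and 22.1 CPM with Dex and 12.6, 7.79 and 12 CPM with vehicle (LFC 1.64, SE 0.37, adjusted p 0.0972) and was called without vehicle replicate 3. Sgk1, a kinase of ion transport, was at 141, 189 and 202 CPM with Dex and 33.7, 104 and 109.6 CPM with vehicle (LFC 1.10, adjusted p 0.137), with vehicle replicate 1 lowest, and was called without vehicle replicate 3 as well.

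The metallothioneins Mt2 and Mt1, which bind zinc, had an LFC of 1.02 (adjusted p 0.104) and 0.58 (adjusted p 0.176), with no overlap between the groups. Glul, the glutamine synthetase, had an LFC of 1.29 (adjusted p 0.177), Rgs2, a brake on G protein signalling, of 2.15 (0.144), Bcl6, a repressor, of 0.39 (0.165), and Errfi1, an inhibitor of the EGF receptor, of 1.51 (0.317), again without overlap. Angptl4, an inhibitor of lipoprotein lipase, was at 37.6, 354 and 66.5 CPM with Dex and 77.3, 53.9 and 49.7 CPM with vehicle (LFC 1.34, adjusted p 0.262). This difference rested on Dex replicate 2, without which the LFC was -0.21. The 3 members with an unadjusted p over 0.05 were Crispld2 (LFC 1.07, adjusted p 0.406), Nfkbia, the inhibitor of NF-kB (0.41, 0.395), and Ddit4, an inhibitor of mTORC1 (0.20, 0.452).

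Lists of inflammatory genes held 0 genes called by edgeR with all libraries. Of 20 cytokines and chemokines tested, 16 had a negative LFC, 6 had an unadjusted p under 0.05 in the lower direction and 0 in the higher direction (10.2% and 5.43% of all genes), and the median LFC was -0.50 (-0.38 without vehicle replicate 3), while DESeq2 called 3 lower (1.05% of all genes). Ccl2, a chemokine for monocytes, was at 4.04, 5.11 and 6.68 CPM with Dex and 4.85, 23.7 and 29.7 CPM with vehicle (LFC -1.88, adjusted p 0.188). Its values overlapped through vehicle replicate 1, and the LFC was -2.34 without that library and -1.41 without vehicle replicate 3. Csf1, the macrophage growth factor, was at 139.6, 124 and 180.1 CPM with Dex and 215, 213 and 199 CPM with vehicle, without overlap (LFC -0.50, adjusted p 0.177, and between -0.48 and -0.54 without vehicle libraries 1, 3 or both). By contrast, Cxcl16, Ccl9 and Tnf were highest in vehicle replicate 3, and the LFC of Cxcl16 and Ccl9 went from -1.75 and -4.15 to -0.38 and -0.29 without it. These 3 moved with the macrophage markers, whose part in the result was not tested otherwise.

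For NF-kB and its inhibitors, 6 of 18 tested genes had an unadjusted p under 0.05, all in the lower direction, where 10.2% of all genes reached that p. Of these lists' members 0 were called by edgeR or DESeq2, and the median LFC was -0.14. Without vehicle replicate 1, 3 and both, the median was -0.098, 0.072 and -0.0072. Of the 6, Nfkb2, Rela, Relb, Nfkbib and Tnip2 were highest in vehicle replicate 1, and Ikbkb was not. Relb was at 13.4, 16.5 and 13.1 CPM with Dex and 28.1, 17.6 and 16.3 CPM with vehicle (LFC -0.53, adjusted p 0.196). Here vehicle replicate 1 was the highest library, and the LFC without it was -0.24. For AP-1 and immediate early genes, 2 of 19 were lower and 1 higher at an unadjusted p under 0.05, near the shares of all genes (10.2% and 5.43%). Either tool called 0 of them, and the median was -0.021. Jund was at 120.0, 79.6 and 117 CPM with Dex and 186, 124 and 124 CPM with vehicle (LFC -0.46, adjusted p 0.248), and its LFC was -0.23 without vehicle replicate 1, its highest library. Among 27 matrix proteases and their inhibitors, 2 were higher and 2 lower at that level (5.43% and 10.2% of all genes). DESeq2 called 1 in each direction (0.768% of all genes higher and 1.05% lower). Adamts1, a protease of proteoglycans, was at 410.2, 735 and 579 CPM with Dex and 174, 364 and 256 CPM with vehicle (LFC 1.12, adjusted p 0.144), and Mmp3, or stromelysin, at 13.9, 328 and 43.3 CPM with Dex and 14.8, 40.5 and 35.0 CPM with vehicle (LFC 2.09, adjusted p 0.22), where Dex replicate 2 was far above the rest. Plau and its receptor gene Plaur had the highest value in vehicle replicate 3, and their LFC went from -1.56 and -1.30 to -0.058 and -0.73 without it.

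In the remaining lists 0 genes were called by edgeR with all libraries, and DESeq2 called 2 of lipid and energy metabolism, 2 C/EBP and adipogenic regulators and 1 of metallothioneins and zinc transporters, all higher (0.768% of all genes). At an unadjusted p under 0.05, the counts of these lists stand against 5.43% of all genes higher and 10.2% lower. Interferon-stimulated genes had a median LFC of -0.22 over 22 tested members, with 2 lower and 0 higher, a share near that of all genes, and the median turned to 0.12 without vehicle replicate 3. Contractile and myofibroblast genes had a median of -0.39, with 3 of 19 higher and 1 lower, hyaluronan genes -0.31 with 0 of 10 at that level, and genes of lipid and energy metabolism -0.031 with 4 of 26 higher and 2 lower. Without vehicle replicate 1, 3 and both, the contractile median was -0.041, -0.44 and -0.28, and the hyaluronan median -0.29, -0.065 and -0.048. Insulin-like growth factors and their binding proteins had a median of 0.41, with 2 of 10 higher, and C/EBP and adipogenic regulators 0.094, with 2 of 18 higher and 1 lower. JAK-STAT feedback genes had a median of 0.053, with 3 of 22 higher and 1 lower, and inflammatory effectors 0.37, with 3 of 20 higher. Without vehicle replicate 1, 3 and both, the median of the inflammatory effectors was 0.26, 0.59 and 0.054. Metallothioneins and zinc transporters had a median of 0.27, with 3 of 14 higher and 1 lower, which went to -0.017 without vehicle replicate 1. Fibroblast markers had a median of -0.033, with 1 of 14, Pdgfra, higher at an unadjusted p under 0.05 (525, 920.5 and 498 CPM with Dex, 152, 312 and 306 CPM with vehicle, LFC 1.33, adjusted p 0.227). Among the markers of epithelium, endothelium, skeletal muscle, neural cells, cartilage and bone, blood and placenta, 3 to 10 members a list passed the filter, 0 were called by edgeR or DESeq2, and 1 in all had an unadjusted p under 0.05, a neural marker that was lower.

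**Figure D5:**
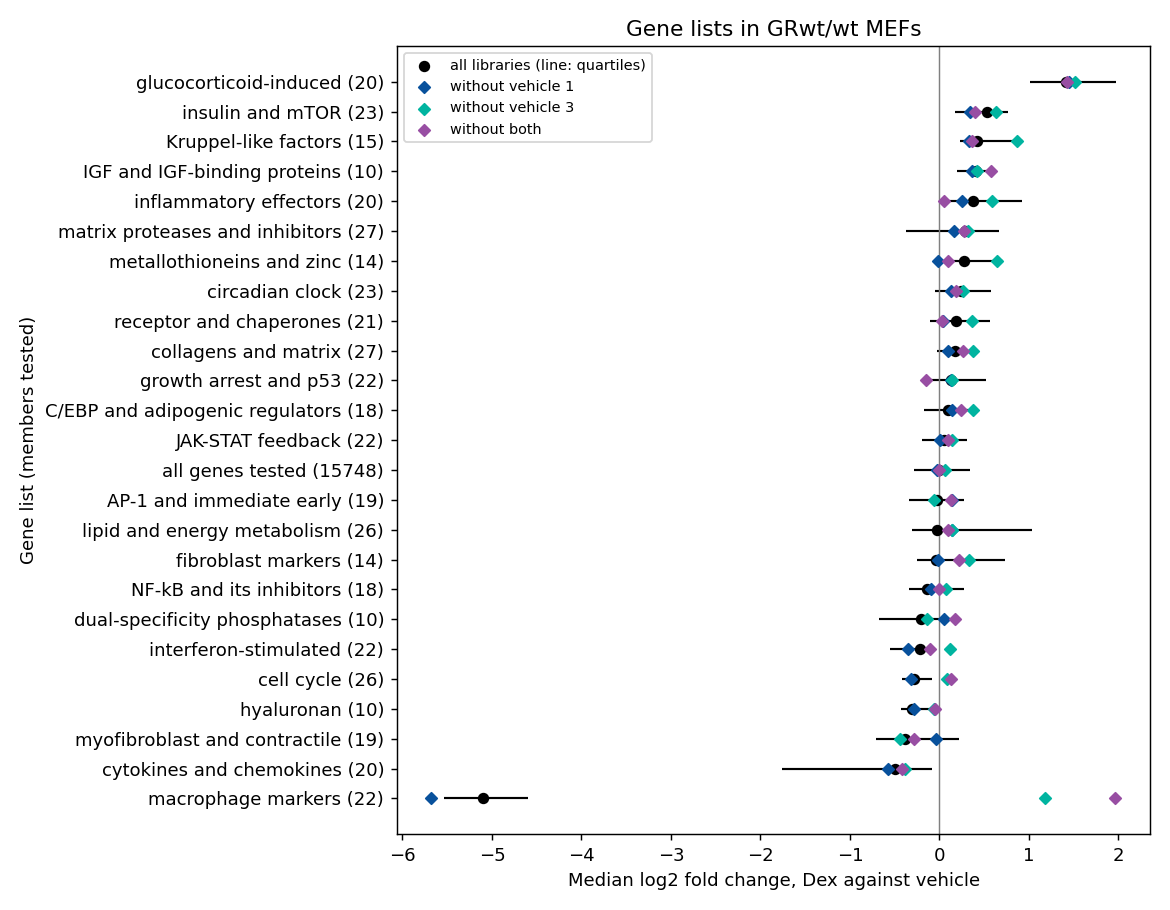
Median LFC of Dex against vehicle for 24 gene lists and all tested genes (black, with lines from the lower to the upper quartile of the members), and the same median without vehicle replicate 1 (blue), without vehicle replicate 3 (green) and without both (purple), with the number of tested members in parentheses. The glucocorticoid-induced list lies at 1.42 to 1.51 in all 4 fits, whereas the macrophage markers move from -5.10 to 1.18 without vehicle replicate 3. The lists were chosen with earlier results of these data known.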

How the data were processed

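The authors isolated total RNA, made TruSeq libraries, mapped reads to mm10 (GRCm38) with HISAT2 (2.1.0 in the submitters' processing notes), kept unique reads and deposited raw counts per gene from featureCounts (2.0.0). Strandedness and annotation release are not given in the sources used here. Symbols and coordinates are from GENCODE M21 (55227 of 55487 identifiers matched).

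Counts were tested in edgeR 4.0.16 (R 4.3.3) by its quasi-likelihood test on all 23 libraries with 1 mean per group, TMM factors, filterByExpr (15748 genes) and a prior count of 0.125. SEs were derived from the LFC and F. Calls needed an adjusted p (Benjamini-Hochberg, over all genes) not above 0.05 and an absolute LFC of at least 1. CPM use TMM. Summed-count intervals are exact at 95%. DESeq2 1.42.0 and voom in limma 3.58.1 were alternatives, as were other scalings, filters and prior counts, a GC and length correction, a replicate block and leaving out libraries. All tools were tested on simulated data.

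Members and gene lists were chosen with earlier results of these data known. Named were all called genes except 1 that is not reported here, Nr3c1, the glucocorticoid-induced list, genes passing the adjusted p alone, at most 10 falling genes called lower in at least 2 of 3 fits leaving out a vehicle library, at most 4 members per list with the smallest p, and the 5 newly called higher genes with the smallest p without vehicle replicates 1, 3 or both.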

Additional observations from a re-analysis of the deposited data

How the results depend on the processing

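The count of genes called higher was 25 and that of genes called lower 0. Besides leaving out libraries 1 at a time and the fits with a replicate block, settings that moved the higher count by more than 1.5 times were the fit of the GRwt/wt libraries alone (0 genes), DESeq2 (121), voom with sample quality weights (15), the GC and length correction (40) and that correction without vehicle replicate 3 (94). RLE scaling, upper-quartile scaling, no filter on low counts, a filter at 10 counts in 3 libraries, robust empirical Bayes and a prior count of 2 gave 26, 19, 23, 26, 25 and 24. With the same exceptions, the lower count was 3 by adjusted p alone, 165 in DESeq2, 1 with the GC and length correction (Slc9b2, highest in vehicle replicate 3) and 247 with that correction without vehicle replicate 3. The cause of these shifts was not tested. Leaving out 1 library at a time gave 14 to 182 higher and 0 to 192 lower genes, with 14 higher without Dex replicate 2, 41 higher and 34 lower without vehicle replicate 1, 182 and 192 without vehicle replicate 2, 93 and 2 without vehicle replicate 3, and 1 lower (Fam20a) without Dex replicate 3. Without vehicle replicates 1 and 3, 21 genes were higher and 1 was lower. Of the 25 genes, 13 were called without Dex replicate 2, 17 without Dex replicate 3 and 20 without Dex replicate 1.

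With the labels' replicate number as a replicate block, 181 genes were called higher, including all 25, and 18 lower, and with the GC and length correction as well 147 and 22. The numbers could not be taken as a pairing, since the deviations from the group means correlated between Dex and vehicle libraries with the same number at 0.572, 0.065 and 0.032, while Dex replicate 3 with vehicle replicate 2 gave 0.589 and Dex replicate 2 with vehicle replicate 3 gave 0.364. The block counts therefore rest on numbers that may not match the libraries to each other, and whether numbers 2 and 3 are exchanged in 1 group was not tested.

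Among the named genes followed through all settings, the sign of 7, none of them called in the 25, changed in some settings. Named genes outside this set, such as Des, were not followed in every setting. The LFC of Nr3c1 ranged from -0.25 (without vehicle replicate 1) to 0.83 (without vehicle replicate 3) when 1 library was left out, and was -0.026 with voom and sample quality weights and -0.13 without vehicle replicates 1 and 3. Angptl4 ranged from -0.21 without Dex replicate 2 to 1.84 without Dex replicate 1. Igf1r was at -0.21 with the GC and length correction, -0.16 with the replicate block and that correction, and -0.40 with that correction without vehicle replicate 3. In the last setting Atp6v0c-ps2 was at 0.12, Jund at 0.027, Oas1a at 0.0032 and Itgam at 0.11, and Itgam ranged from -7.99 without Dex replicate 2 to 0.34 without vehicle replicate 3. Upper-quartile scaling moved the median LFC of all genes to -0.09, and no setting moved it by over 0.1.

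For Rasd1, with 0 counts in vehicle, the fitted LFC was 7.77 with the prior count used throughout and 3.86 with a prior count of 2, so it depends on that setting.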
